A study of Mus musculus with 4 samples.

Results

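The glutathione S-transferases (GSTs) of mouse liver were followed across 4 single-colour Agilent arrays, as 10 genes out of 30439 genes and transcripts on the array. The members were the alpha-class genes Gsta1, Gsta2, Gsta3 and Gsta4, the mu-class genes Gstm1, Gstm2, Gstm3 and Gstm4, the pi-class gene Gstp1 and the theta-class gene Gstt1. A probe belonged to the set if the scanner files named it by 1 of these symbols, which gave 18 probes. The family was chosen by its name after the genotype and refeeding differences on these same 4 arrays were known, so the differences below are descriptions and carry no test.

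The arrays held liver RNA of male C57BL/6J mice on a high-fat diet, for 24 weeks by the labels. Drp1LiKO mice carried floxed Drp1 alleles and a Cre transgene under the albumin promoter, which removes Drp1, the GTPase that divides mitochondria, from hepatocytes. The control mice (Cont) were littermates with the floxed alleles and no Cre, and the labels call the genotypes knockout and wild type. Refed livers came after a fast of 17 h and 4 h of refeeding by the series description, while the methods give a slightly shorter fast. The labels of the other 2 arrays state no feeding state and give their raw data as shared with earlier submissions. The study treats them as fasted, and they are called not refed here. Each group was 1 array. No replicate check exists for any difference, and the labels do not say whether an array held RNA of 1 animal or of several.

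GSTs are dimeric enzymes that couple the tripeptide glutathione to electrophilic compounds, such as drug metabolites and aldehydes from oxidised lipids, and so make them soluble for export. Hepatocytes hold large amounts of the cytosolic alpha, mu and pi enzymes. The genes of several classes are known as inducible through the transcription factor NRF2 and through nuclear receptors, and some differ between the sexes in rodent liver.

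The alpha probes are shown first because their likeness bears on how far the signals of Gsta1 and Gsta2 can be read apart. In the RefSeq annotation of GRCm38.p6, Gsta4, Gsta1, Gm3776, Gm10639 and Gsta2 follow each other in that order on chromosome 9. On the mm9 build used by the scanner files, the Gsta1 probe lies at chr9:78090411-78090470 and the Gsta2 probe at chr9:78178856-78178915. Among 39392 probes of full length, the Gsta1 probe matched the Gsta2 probe in all but 4 of 50 overlapping bases (92.0% identity), and the Gm10639 probe at chr9:78153243-78153302 matched the Gsta2 probe in all but 7 of 60 bases (88.3%). A stretch of 30 bases from the 3 probes is set side by side, with capitals at the 2 bases that are not common to all of them.
Gsta1 probe, bases 1 to 30: ctggcctctaatGgtttgcaattataaaaA
Gsta2 probe, bases 11 to 40: ctggcctctaatTgtttgcaattataaaaT
Gm10639 probe, bases 11 to 40: ctggcctctaatGgtttgcaattataaaaT
Only the Gsta1, Gsta2 and Gstp1 probes, 3 of the 18, had a probe of another gene on the array with at least 75% identity over at least 30 bases. Signal of 1 of these transcripts on the probe of another was not tested.

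The pi-class probe that starts at transcript base 349 overlapped a Gstp2 probe by 35 bases, with 5 differing (85.7% identity). They are shown because the signals of the 2 neighbouring pi genes cannot be assigned with certainty, and capitals mark the differing bases of the overlap.
Gstp1 probe: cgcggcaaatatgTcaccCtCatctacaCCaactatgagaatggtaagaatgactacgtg
Gstp2 probe: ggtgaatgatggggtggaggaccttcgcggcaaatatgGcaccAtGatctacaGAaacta

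All 18 GST probes were well above background on all 4 arrays, as called by the scanner software. Levels are given as the log2 of a probe's signal over the 75th percentile of gene-spot signals on the same array, so 0 is that percentile and each unit is a doubling. They compare 1 probe between arrays and not different probes with each other. A difference was called if it reached 2-fold, or 1 on the log2 scale, and the brighter signal was well above background. The error given with a difference is the standard error (SE) of the scanner's error model, which covers measurement only and lay between 0.204 and 0.235 for the member probes.

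The 75th percentile signal itself ranged from 357 to 722 between the arrays, and 48.7% to 58.2% of gene spots were well above background. All 9 hepatocyte markers on the array were well above background in every group. Their summed level was 2688 in Cont and 1916 in Drp1LiKO without refeeding, and 3156 and 2192 after it, in multiples of the 75th percentile signal. In the order Cont, Drp1LiKO, refed Cont and refed Drp1LiKO, the 10 cholangiocyte markers summed to 0.97, 1.62, 0.98 and 1.94 and the 9 stellate cell markers to 2.53, 4.18, 3.35 and 2.84. In the same order the 7 neutrophil markers summed to 6.18, 3.75, 6.94 and 10.6 and the 8 lymphocyte markers to 23.5, 19.3, 24.5 and 18.2. The 8 endothelial cell markers summed to 57.3, 48.5, 60.3 and 41.2 and the 4 erythroid markers to 120, 67.3, 145 and 134. The 10 macrophage markers summed to 95.6 in Cont, 112 in Drp1LiKO and 188 in refed Drp1LiKO, and refed Cont lay between Cont and Drp1LiKO. Of the cholangiocyte markers 4 to 7 were well above background on an array, and Epcam and Muc1 on none. In whole liver, fewer cells of a type and less RNA per cell cannot be told apart, and the part of cell composition in the GST differences was not tested. Dnm1l, which encodes Drp1, has 1 probe whose place relative to the deleted exons is not given. Its genotype difference was -0.21 (SE 0.20) without refeeding and -0.12 (SE 0.20) after it, so this probe does not check the genotype.

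Gsta1, an alpha enzyme with peroxidase activity toward lipid hydroperoxides, had levels of -0.09 in Cont, 3.88 in Drp1LiKO, 1.19 in refed Cont and 5.01 in refed Drp1LiKO. Both Drp1LiKO arrays were far above both Cont arrays, and each refed array was above its counterpart of the same genotype. The genotype difference was 3.97 (SE 0.21), or 15.7-fold, without refeeding and 3.82 (SE 0.20), or 14.1-fold, after it. Among 14447 genes well above background on all arrays it ranked 4 and 3 from the highest.

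Gsta2, its closest relative on the array by probe sequence, stood at 2.26 in Cont, 4.27 in Drp1LiKO, 2.62 in refed Cont and 4.85 in refed Drp1LiKO. The order of the arrays was that of Gsta1, although the Cont arrays lay within 1.96 SE of each other. The genotype difference of 2.01 (SE 0.20) without refeeding and 2.24 (SE 0.20) after it corresponded to 4.03-fold and 4.71-fold. Gm10639, annotated as protein coding and lying between these genes, had 2 probes that were also higher in Drp1LiKO. Its probe shown above differed by 2.87 (SE 0.20) and 3.13 (SE 0.20), and its other probe by 1.56 (SE 0.21) and 1.13 (SE 0.21).

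Gsta3, an abundant hepatic alpha enzyme known for conjugating aflatoxin epoxide in the mouse, went the other way. Its probe starting at transcript base 998 read 7.64 in Cont, 6.90 in Drp1LiKO, 8.12 in refed Cont and 7.65 in refed Drp1LiKO. Drp1LiKO was the lower array in each feeding state, and refed Drp1LiKO was at the level of Cont that had not been refed. The genotype difference was -0.74 (SE 0.20) and -0.47 (SE 0.20), and the probe starting at base 852, at 7.18, 6.46, 7.68 and 7.21 in the same order, gave -0.72 and -0.47. These differences were beyond 1.96 SE of the scanner error and below 2-fold. Under quantile normalization the probe starting at base 998 gave -0.34 and -0.21, both within 1.96 SE.

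Gsta4, the alpha enzyme specialised for the lipid aldehyde 4-hydroxynonenal, was printed in 9 to 10 usable spots per array. Its levels were 0.77 in Cont, 0.97 in Drp1LiKO, 1.15 in refed Cont and 1.32 in refed Drp1LiKO. No neighbouring levels in that order differed by more than 1.96 SE, and its genotype difference was 0.19 (SE 0.20) without refeeding and 0.16 (SE 0.20) after it.

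**Figure D1:**
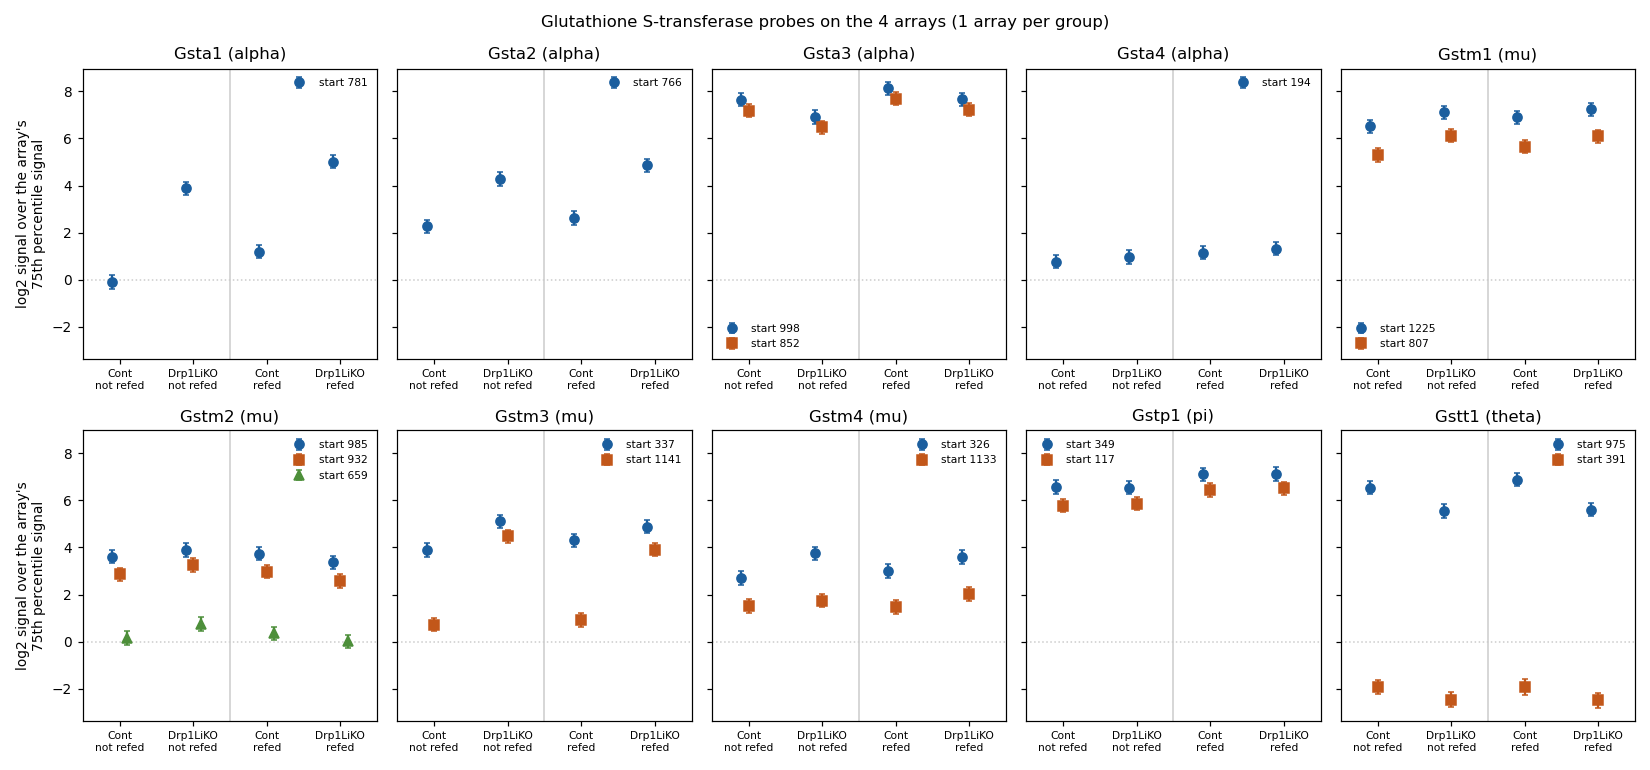
Level of each GST probe on the 4 arrays, as log2 signal over the 75th percentile signal of the array, with 1 panel per gene, symbols for probes of different transcript start and bars of 1.96 measurement SE. Gsta1 runs from -0.09 in Cont to 5.01 in refed Drp1LiKO, while Gsta3 and Gstt1 are lower in Drp1LiKO in both feeding states.

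Gstm1, a major mu enzyme of liver, read 6.52 in Cont, 7.10 in Drp1LiKO, 6.90 in refed Cont and 7.23 in refed Drp1LiKO at the probe starting at base 1225. The probe starting at base 807 read 5.29, 6.12, 5.65 and 6.09 in the same order. Drp1LiKO was higher at both probes and in both states, by 0.59 and 0.83 without refeeding and by 0.34 and 0.45 after it (SE 0.20 each). All of these were below 2-fold, although under quantile normalization the values without refeeding were 0.92 and 1.19. The scanner files place the first of these probes on chromosome 5 and the second on chromosome 3 of mm9, so the first was taken as Gstm1 from its name and accession in the file only. RefSeq lists a pseudogene, Gstm2-ps1, on chromosome 5 of GRCm38.p6, and whether this probe lies in it was not tested. As the brighter probe, it stands for Gstm1 in the counts below.

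Gstm2, another mu enzyme, had 3 probes. The probe starting at base 985 read 3.61 in Cont, 3.90 in Drp1LiKO, 3.73 in refed Cont and 3.37 in refed Drp1LiKO. The probes starting at bases 932 and 659 read 2.86, 3.25, 2.97 and 2.58, and 0.16, 0.75, 0.35 and 0.02, in the same order. In each case refed Drp1LiKO was the lowest array and Drp1LiKO without refeeding the highest. The genotype difference was positive without refeeding and negative after it at all 3 probes and under each scaling: it was 0.29, 0.39 and 0.60 in the first state and -0.36, -0.39 and -0.33 in the second. At the probe starting at base 985 both differences lay within 1.96 SE, with intervals from -0.11 to 0.69 and from -0.76 to 0.04, and only the 0.60 of the probe starting at base 659 lay beyond it. For the 3 probes the refed difference minus the other was -0.65, -0.78 and -0.93 (SE 0.29 each). This was the only member whose sign turned between the feeding states at every probe, and no replicate shows how far such a gap varies between animals.

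Gstm3 separated by probe. The probe starting at base 337, in the body of the transcript, read 3.89 in Cont, 5.11 in Drp1LiKO, 4.30 in refed Cont and 4.88 in refed Drp1LiKO, and the probe starting at base 1141, near its end, read 0.73, 4.48, 0.92 and 3.91. Both were higher in Drp1LiKO, but the earlier probe differed by 1.22 and 0.59 and the later by 3.75 and 2.99, which is 13.4-fold and 7.93-fold (SE 0.20 each). The later probe exceeded the earlier by 2.53 (SE 0.29) without refeeding and 2.40 (SE 0.29) after it. The first 30 bases of each probe are shown, since the size of the Gstm3 difference depends on which is read, and the mm9 positions are on the minus strand of chromosome 3.
Gstm3 probe from base 337, chr3:107769290-107770549 across an intron: aaccaggttatggacacccgcatacagctc
Gstm3 probe from base 1141, chr3:107766615-107766674: tcatgtacaataaagcctgaaacacacttg
Neither had a probe of another gene on the array with at least 75% identity over at least 30 bases. Shorter overlaps fell outside that search, such as that of the later probe with the end of the Gstm1 probe starting at base 1225. Signal of 1 transcript on the probe of the other was not tested. The brighter, earlier probe stands for the gene in the counts below, by the rule that takes the probe well above background on most arrays and then the brightest.

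Gstm4, also a mu enzyme, stood at 2.70 in Cont, 3.75 in Drp1LiKO, 2.997 in refed Cont and 3.59 in refed Drp1LiKO at the probe starting at base 326. Its genotype difference of 1.05 (SE 0.20) without refeeding was just inside the 2-fold limit, and that of 0.60 (SE 0.20) after refeeding was outside. The call without refeeding was lost with scaling to the array median (0.996) and with the median over its probes (0.64). At the probe starting at base 1133 the levels were 1.51, 1.74, 1.47 and 2.02 and the differences 0.23 and 0.55, both below 2-fold. Over the 9 mu probes, 9 were higher in Drp1LiKO without refeeding and 6 after it, and the 3 that were lower belonged to Gstm2. In RefSeq the 4 mu members lie on chromosome 3 in the order Gstm3, Gstm2, Gstm1 and Gstm4, so Gstm2 lies between members that were higher in Drp1LiKO in both states.

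Gstp1, the pi enzyme and a classic marker of altered hepatocyte foci in rats, read 6.57 in Cont, 6.54 in Drp1LiKO, 7.11 in refed Cont and 7.12 in refed Drp1LiKO. The genotypes were side by side in each feeding state and the refed arrays were higher. The genotype difference was -0.03 (SE 0.20) without refeeding and 0.01 (SE 0.20) after it, and at the probe starting at base 117 it was 0.09 and 0.07. At 1.96 SE on either side the measurement interval ran from -0.43 to 0.37 without refeeding and from -0.38 to 0.41 after it. The Gstp2 probe shown above gave -0.01 and 0.07 for the same comparisons, while the other Gstp2 probe gave -0.42 and -0.31.

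Gstt1, the theta enzyme that acts on small halogenated compounds, read 6.54 in Cont, 5.54 in Drp1LiKO, 6.88 in refed Cont and 5.60 in refed Drp1LiKO at the probe starting at base 975. Both Drp1LiKO arrays lay below both Cont arrays, and within a genotype the feeding states were within 1.96 SE. The genotype difference was -0.999 (SE 0.20) without refeeding, just outside the 2-fold limit, and -1.27 (SE 0.20), or 2.41-fold lower, after refeeding. With scaling to the array median the first was called as well (-1.06), and with the median over the probes the second was not (-0.91). A much dimmer probe starting at base 391 read -1.92, -2.46, -1.94 and -2.48 and gave -0.54 in both states (SE 0.22 and 0.24).

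Counted over genes, 7 of the 10 members were higher and 3 lower in Drp1LiKO without refeeding, with a median of 0.44 against -0.12 over the 14447 genes on all arrays, and Gstp1, 1 of the 3 lower, moved to the higher side under quantile normalization (0.29). Of these, 4 were called higher (Gsta1, Gsta2, Gstm3 and Gstm4), where 8.06% of all genes tested were called higher, and 0 were called lower, where 5.19% were. Gstm4 was not among them with scaling to the array median or with the median over probes, which left 3. After refeeding the split was again 7 and 3, with a median of 0.25 against -0.08. Gsta1 and Gsta2, 2 genes, were then called higher, where 8.05% of all genes were, and Gstt1, 1 gene, was called lower, where 6.33% were. With the median over probes Gstm3 (1.79) was called higher as well, which made 3, and Gstt1 was not called. The shares of all genes, here and below, are over genes well above background on either of the arrays compared. Over the 14447 genes on all arrays they were 2.75% higher and 3.31% lower without refeeding, and 3.12% and 3.99% after it. Because the family was picked with these contrasts in view, nothing is read from its shares against those of all genes. The sign was the same in both states for 8 of 10 members, and 2 of them were called the same way in both. The matching shares over all genes are not given here, so nothing is read from these counts either. These 2 comparisons share no array, but the family was chosen with both known.

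**Figure D2:**
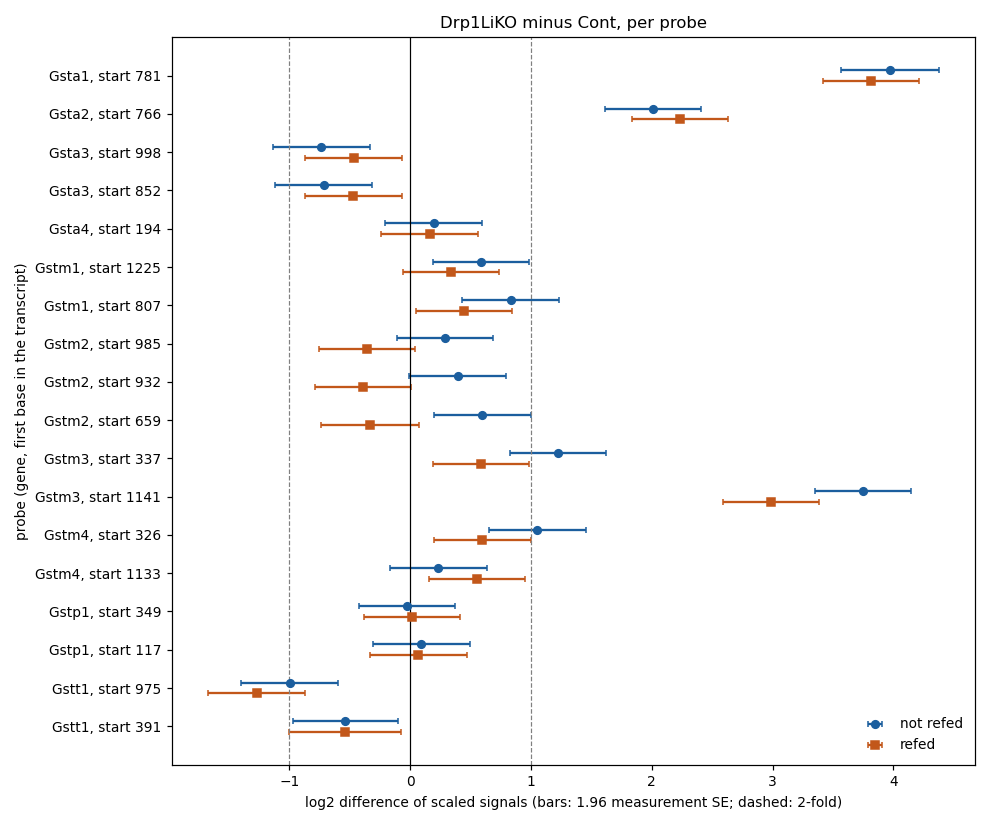
Drp1LiKO minus Cont for each of the 18 GST probes, on the log2 scale, without refeeding and after it, with bars of 1.96 measurement SE and dashed lines at 2-fold. Gsta1, Gsta2 and the later Gstm3 probe lie beyond 2-fold on the higher side in both states, the Gstt1 probe from base 975 reaches -1.27 after refeeding, and the 3 Gstm2 probes change side.

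**Figure D3:**
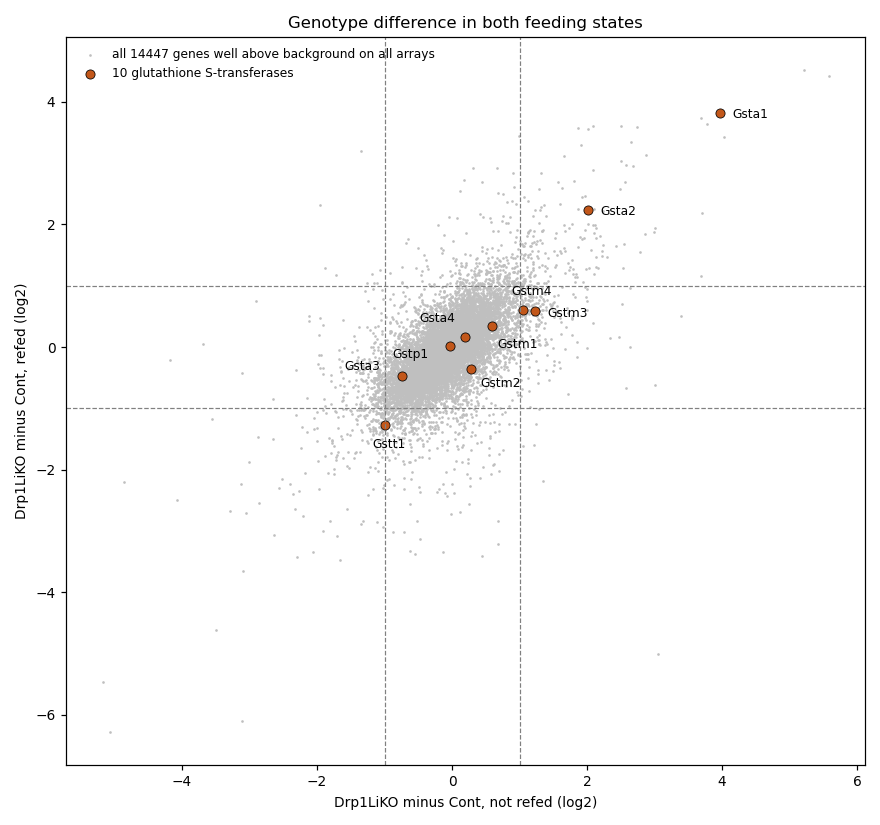
Genotype difference without refeeding (x axis) and after it (y axis), both log2, for 14447 genes well above background on all arrays, with the 10 GSTs marked and dashed lines at 2-fold. Gsta1 sits at 3.97 and 3.82, Gsta2 at 2.01 and 2.24, and Gstt1 at -0.999 and -1.27.

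The refeeding comparisons use the same 4 arrays as the genotype comparisons and are given as values only. In Cont, all 10 members were higher after refeeding, with a median of 0.38 against 0.11 over all genes, although Gstm2 turned to -0.05 under quantile normalization. Only Gsta1, 1 gene, was called, at 1.28 (SE 0.21) or 2.43-fold, where 4.47% of all genes were called higher and 5.83% lower. Gstp1 differed by 0.54 (SE 0.20) and Gsta3 by 0.48 (SE 0.20), both beyond 1.96 SE and below 2-fold, but under quantile normalization they stood at 0.20 and 0.18, within 1 SE. Gstt1 differed by 0.34, or 0.01 under quantile normalization, and Gsta2 by 0.35, within 1.96 SE. The median of the 10 members was 0.19 under that normalization.

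In Drp1LiKO, 7 members were higher and 3 lower after refeeding, with a median of 0.24 against 0.12, and under quantile normalization 5 were higher and 5 lower, with a median of -0.15. Again only Gsta1, 1 gene, was called, at 1.12 (SE 0.20), where 5.61% of all genes were called higher and 7.15% lower, and under quantile normalization it stood at 0.83 and was not called. All 4 alpha members were higher, Gsta3 by 0.75 and Gsta2 by 0.58 (SE 0.20 each), and they stayed on that side under each scaling. Under quantile normalization Gsta3 stood at 0.30 and Gsta2 at 0.27, both within 1.96 SE, and Gstp1, higher by 0.58, was at 0.07.

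For the mu class most refeeding differences lay within 1.96 SE. In Cont its 4 members were higher by a median of 0.34, and 8 of 9 mu probes were higher, with Gstm3 at 0.41 (SE 0.20) just beyond 1.96 SE. Under quantile normalization the members stood at 0.07 (Gstm1), -0.05 (Gstm2), 0.22 (Gstm3) and 0.17 (Gstm4). In Drp1LiKO the median was -0.19 and 3 of 4 members were lower, of which Gstm4 turned to 0.06 with the median over its probes, and 7 of 9 mu probes were lower. At the probes that stand for the genes, only Gstm2, at -0.52 (SE 0.20), was beyond 1.96 SE. The later Gstm3 probe, at -0.57 (SE 0.20), was beyond it as well. Under quantile normalization Gstm2 stood at -0.79, Gstm3 at -0.59 and Gstm4 at -0.41 in Drp1LiKO. No mu member reached 2-fold with refeeding in either genotype. The sign of Gstm1 in Drp1LiKO, 0.13, turned to -0.39 under quantile normalization, and that of Gstt1, 0.07, to -0.38.

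**Figure D4:**
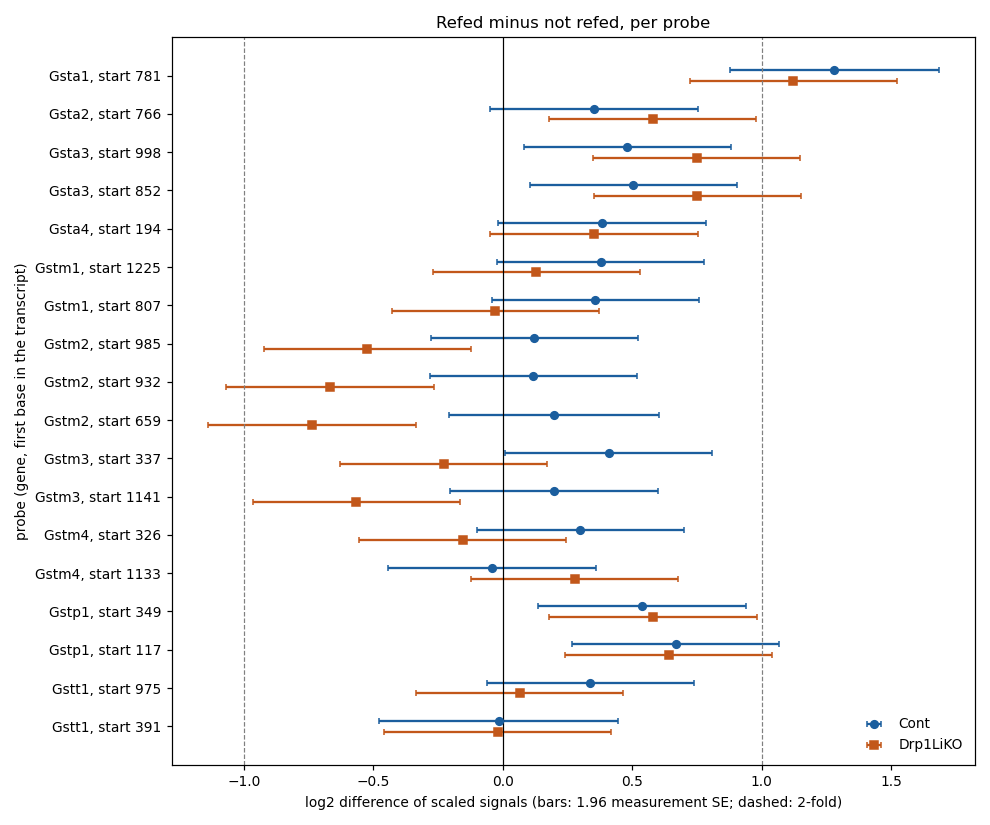
Refed minus not refed for each of the 18 GST probes, on the log2 scale, in Cont and in Drp1LiKO, with bars of 1.96 measurement SE and dashed lines at 2-fold. The alpha and pi probes lie on the higher side in both genotypes, and 7 of 9 mu probes lie on the lower side in Drp1LiKO.

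**Figure D5:**
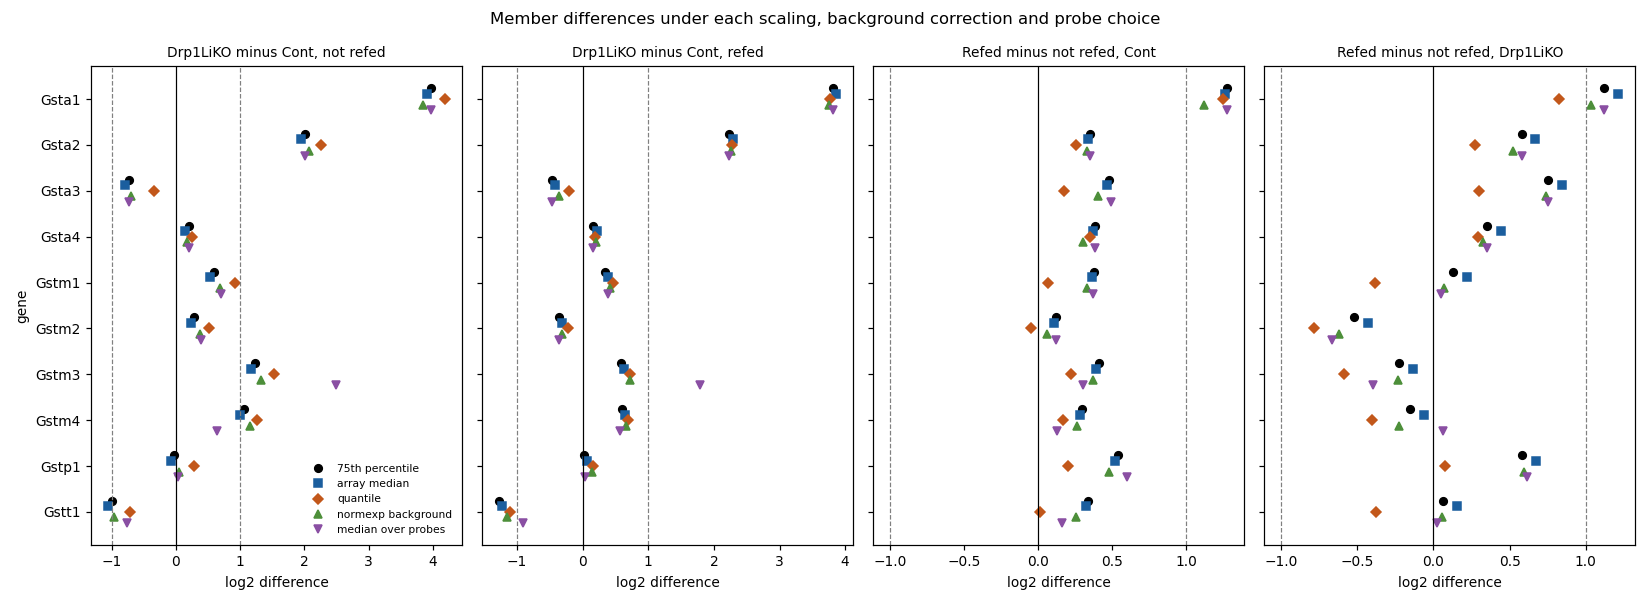
Log2 difference of each member in the 4 comparisons under the 75th percentile scaling, scaling to the array median, quantile normalization, normexp background correction and the median over a gene's probes, with dashed lines at 2-fold. Gsta1 stays at 3.75 or more and Gsta2 at 1.95 or more in both genotype comparisons, while small refeeding differences in Drp1LiKO cross 0 under quantile normalization.

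The upstream sequences were compared because Gsta1 and Gsta2 were higher together while Gsta3 was lower. RefSeq windows were at hand for 9 members, and none for Gsta4. In a global alignment of the 250 bases before the start, Gsta1 and Gsta2 shared 191 bases over 263 aligned columns (72.6% identity), and the other pairs of members lay between 43.0% and 58.0%. Capitals mark the longest run of letters that Gsta1 and Gsta2 share, 29 bases, and in Gsta3 a match of the antioxidant response element core TGACNNNGC, the letters bound by NRF2.
Gsta1, GRCm38.p6 chr9:78230419-78230668, plus strand: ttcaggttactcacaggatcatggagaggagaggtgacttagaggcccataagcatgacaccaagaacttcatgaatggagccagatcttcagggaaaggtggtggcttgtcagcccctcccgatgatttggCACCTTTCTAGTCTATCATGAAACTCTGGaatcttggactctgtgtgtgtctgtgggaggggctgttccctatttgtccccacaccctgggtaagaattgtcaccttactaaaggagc
Gsta2, GRCm38.p6 chr9:78347146-78347395, minus strand: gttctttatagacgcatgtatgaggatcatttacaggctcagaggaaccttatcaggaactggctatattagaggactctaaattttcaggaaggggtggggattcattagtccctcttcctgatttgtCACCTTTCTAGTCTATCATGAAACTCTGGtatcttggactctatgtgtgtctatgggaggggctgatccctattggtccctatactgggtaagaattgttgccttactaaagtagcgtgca
Gsta3, GRCm38.p6 chr1:21240335-21240584, plus strand: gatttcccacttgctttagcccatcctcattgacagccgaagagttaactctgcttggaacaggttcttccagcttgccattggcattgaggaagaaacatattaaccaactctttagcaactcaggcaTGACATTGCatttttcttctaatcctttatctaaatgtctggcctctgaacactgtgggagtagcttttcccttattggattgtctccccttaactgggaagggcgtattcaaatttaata

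In windows from 250 bases before to 50 after the start, on both strands, TGACNNNGC was found in 1 of the 9 members (Gsta3, from -121 to -113) and in 12.4% of 32851 windows of all genes. The xenobiotic response element core GCGTG was found in 4 members (Gsta1, Gsta2, Gstm1 and Gstp1) and in 32.4% of windows. The core TGATGNAA, bound by CEBP-ATF dimers, was found in 0 members and in 3.97% of windows. In the members no match of 1 motif overlapped a match of another, and a match is no measure of binding. The shares are per window, while the members are counted as genes, and the 9 members had 11 windows. Sequence further than 250 bases before the start was not searched, so a missing match holds for these windows only.

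The genes with the most similar pattern over the 4 arrays were sought for the members with the highest and the lowest mean genotype difference, among 14446 other genes and by the distance between centred log2 levels. Nearest to Gsta1 were Asns, asparagine synthetase, at a distance of 0.38, then Tuba8 (0.91), Gm10639 (0.98), Cbr3 (1.14) and Ifi44 (1.21). Asns differed between genotypes by 3.78 and 3.65, and with refeeding by 1.60 in Cont and 1.47 in Drp1LiKO. Nearest to Gstt1 were LOC627096 (0.03), Hexim1 (0.06), Ankrd37 (0.06), Zbtb32 (0.08) and Doxl2 (0.09). With 4 arrays, such distances describe these livers only.

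None of the other GST genes on a fixed list was called higher in Drp1LiKO in either state. That list did not hold Gm10639, which was higher in Drp1LiKO at each of its probes in both states, as given above. Of 14 listed genes well above background on some array, 4 were higher and 10 lower in Drp1LiKO without refeeding, with a median of -0.18. After refeeding 3 were higher and 11 lower, with a median of -0.24. The theta gene Gstt3 (-1.88 and -0.96) and the mitochondrial kappa gene Gstk1 (-1.05 and -0.82) were called lower without refeeding. They are named after their values were seen. For this list and those below, the shares called over all genes were 8.06% higher and 5.19% lower without refeeding. After refeeding they were 8.05% and 6.33%.

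Genes that supply glutathione were mostly not called. Of 17 genes of synthesis and recycling, Slc3a2, a subunit of the cystine transporter, was called higher without refeeding (1.17). Its partner in that transporter, Slc7a11, was well above background on no array and is not among the 17. After refeeding Cth, which makes cysteine (1.11), and Chac1, which degrades glutathione (1.59), were called higher, and no gene of this list was called lower in either state. Gclc, the catalytic subunit of the rate-limiting enzyme, differed by 0.00 and 0.07 (SE 0.20 each), and its modifier subunit Gclm by -0.28 and -0.42. The medians of the list were 0.02 and 0.16.

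Among 6 glutathione peroxidases, the secreted enzyme Gpx3 was called higher in both states, at 1.05 and 1.18. Gpx7 was called higher without refeeding at 1.59, but its Cont signal was not well above background, and against the lowest detected signal of that array the difference was at least 0.83. Gpx2 was called higher after refeeding, at 1.67, also against a Cont signal not well above background. Gpx1 was lower in both states, at -0.76 and -0.79 (SE 0.20 each), and was not called. Of the 6 peroxidases, 4 were higher and 2 lower without refeeding, and 3 were higher and 3 lower after it. Only 4 of the 6 were well above background on all arrays. Of 16 genes of conjugate export and mercapturate formation, the exporter Abcc4 (1.24) and the gamma-glutamyltransferase family gene Ggt7 (1.55, at least 0.33 by the same bound) were called higher and its relative Ggt6 (-1.16) lower without refeeding. Another exporter, Abcc1, was called higher after it, but its Cont signal was not well above background and the lowest detected signal of that array lay above the Drp1LiKO signal, so no fold is given and its direction is not set. The medians were 0.89 and -0.03 for the peroxidases, and -0.10 and 0.14 for export.

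Of 17 regulators of GST transcription, Ppara, the fatty acid-sensing nuclear receptor, was called lower in both states (-1.06 and -1.39). Mafk, a partner of NRF2, was called higher after refeeding (1.04). The NRF2 gene itself, Nfe2l2, differed by 0.19 and 0.28, and Keap1, its inhibitor, by -0.24 and -0.10. A list of 14 NRF2 targets shared Gclc, Gclm, Txnrd1 and Gpx2 with the lists above. Of these targets Cbr3, a carbonyl reductase, was called higher in both states (2.68 and 2.95). Hmox1 (1.02), Srxn1 (1.72) and Gpx2 (1.67, the same call as among the peroxidases) were called higher in the refed pair. None was called lower. The medians were -0.24 and -0.23 for the regulators and 0.16 in both states for the targets.

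Sex-biased and zonal genes were read beside the GSTs, since several GSTs are sex-biased or pericentral in mouse liver. Of 12 male-biased genes, 2 were called higher and 3 lower without refeeding, and 0 and 4 after it, with Serpina4-ps1 (-5.18 and -5.47) and Hsd3b5 (-4.87 and -2.20) called lower in both. Over all genes the shares called were 8.06% higher and 5.19% lower without refeeding, and 8.05% and 6.33% after it. Of 6 female-biased genes, 0 were called higher and 2 lower, and after refeeding 1 higher and 4 lower, with Acot3 (-2.05 and -3.34) and Cyp2b13 (-1.65 and -3.47) lower in both. The 1 called higher after refeeding was Prom1, which is also among the cholangiocyte markers summed above. It stood at 1.97 against a Cont signal not well above background and at least 0.27 by the bound given above. Of 10 pericentral genes, 2 were called higher and 1 lower, and after refeeding 1 and 1. The medians without refeeding and after it were -0.70 and -0.48 for the male-biased genes, -1.04 and -2.58 for the female-biased and -0.54 and -0.69 for the pericentral genes.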

How the data were processed

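Liver RNA was measured on 4 single-colour Agilent arrays, 1 for each genotype and feeding state. The intensity values in the authors' scanner files are processed signals of Agilent Feature Extraction, background-subtracted within each array and not normalized between arrays. The file headers give version 10.7.1.1 and the submitters' processing notes 9.5.1.1, and labels and methods name different array designs and RNA kits. The authors' own normalized matrix, put on the log2 scale, served as an alternative. On that scale it equalled a quantile normalization of the signals to within 0.000424.

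Signals of 39429 probes were set relative to the 75th percentile of 43020 gene spots per array and put on the log2 scale. Outlier spots were left out, which dropped 37 probes, and repeated spots were averaged. Probe names were updated by RefSeq accession. A gene was read at the probe well above background on most arrays and then brightest. Probe positions are mm9, as in the scanner files, and upstream sequences are RefSeq GRCm38.p6. All 4 arrays lay on 1 slide and were read in 1 scan. The number of arrays, 1 per group, limits the precision.

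All members and their probes are named in the text. From each pathway, sex-biased or pericentral list, those called the same way in both feeding states are named by rule, at most 4, and the other list genes named were chosen after their values were seen. Cell type markers are given by their sums. Members and lists were chosen with earlier results of these data known. Alternatives were scaling to the array median, quantile normalization, normexp (offset 50) for the background, the authors' matrix, the median over probes, a filter for all 4 arrays, a 1.5-fold threshold and the file's own gene names. Values were computed in Python 3.11.15 (pandas 2.3.3, numpy 2.4.6, figures in matplotlib 3.10.9), and normexp was run through limma 3.58.1 in R 4.3.3.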

Additional observations from a re-analysis of the deposited data

How the results depend on the processing

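Of 64 recounts of called members under the alternatives, 57 stayed within 1.5 times the value given above and 7 did not. Among the 57, the 4 members called higher without refeeding became 3 with scaling to the array median and with the median over probes, through the loss of Gstm4. They became 5 with a 1.5-fold threshold. The 2 members called higher in the refed pair became 3 with the median over probes, through the gain of Gstm3. With scaling to the array median, 1 member was called lower in Drp1LiKO without refeeding, in place of 0. With a 1.5-fold threshold, 2 were called lower without refeeding, 4 were called higher in the refed pair, in place of 2, and 2 were called higher with refeeding in Drp1LiKO, in place of 1. With the median over a gene's probes, 0 were called lower in the refed pair, in place of 1. With quantile normalization, and likewise with the authors' matrix, 0 were called higher with refeeding in Drp1LiKO. Of 40 member differences, 5 changed sign under some alternative, and none of these was called. They were Gstp1 between genotypes without refeeding (from -0.08 to 0.29), Gstm2 with refeeding in Cont (-0.05 to 0.12) and, with refeeding in Drp1LiKO, Gstm1 (-0.39 to 0.22), Gstm4 (-0.41 to 0.06) and Gstt1 (-0.38 to 0.16). The genotype difference of Gsta1 ranged from 3.84 to 4.19 without refeeding and from 3.75 to 3.87 after it, and that of Gstm3 from 1.17 to 2.49 and from 0.59 to 1.79, the upper end being the median over its probes. The median of all genes without refeeding moved from -0.12 to -0.18 with scaling to the array median and to -0.01 with quantile normalization, and that of refeeding in Drp1LiKO from 0.12 to 0.21 and to 0.04. No paired analysis was possible because each group has 1 array. The SE covers the scanner's measurement only, and how far livers of 1 group differ was not measured.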
